A study of Arabidopsis thaliana with 27 samples.

Results

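The 4 genes described here, grouped under the name of cortex and ground tissue genes, are JKD (AT5G03150), AT1G62500, AT1G62510 and AT1G09750. The name is a heading and not a result for each gene. They were chosen by name, and each is read by the 1 probe set that the annotation used assigns to that gene alone, so they make up 4 of the 22746 probe sets tested. RNA from Arabidopsis thaliana roots was hybridised to 27 Affymetrix ATH1 arrays, 1 array per sample. The first 15 arrays come from 5 lines that carry GFP in chosen root cells, with 3 arrays per line. Line J0571:GFP marks the ground tissue (endodermis and cortex) with the quiescent centre in the Columbia background. SCR:GFP marks the quiescent centre and the endodermis in Landsberg, and its replicate 1 has no tissue label. WOL:GFP marks the stele and GL2:GFP the atrichoblasts, which are epidermal cells without hairs, both in Columbia. J3411:GFP marks the lateral root cap plus epidermis in C24. The other 12 arrays hold Columbia root segments with all cell types, 4 per stage. Stage I is labelled with 0.15 mm from the tip, where the root has its full diameter. Stage II is labelled with 0.30 mm, where cells begin to lengthen, and stage III runs from 0.45 to 2 mm, where root hairs are at full length. The growth medium in all cases was MS with 4.5% sucrose, and days had 16 h of light and 8 h of dark. The 5 lines, their genetic backgrounds and their promoters differ together. No label says whether cells were sorted or replicates grown separately, so the p-values measure only the spread between these samples, which may be technical.

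The ground tissue forms 2 layers around the stele, the inner endodermis and the outer cortex, from divisions of initial cells beside the quiescent centre. The transcription factor SHR moves outward from the stele, where it is made, and acts with SCR in the layer that becomes endodermis. JKD is a zinc finger protein of the INDETERMINATE DOMAIN (IDD) family that binds both and helps to keep SHR from moving further and to hold the layers apart. It is known from the quiescent centre, the ground tissue initials, the endodermis and the cortex. AT1G62500 is the gene whose promoter gives the cortex marker CO2, and it is called CO2 below. It encodes a proline-rich protein with the 8-cysteine motif of lipid transfer proteins, and so does AT1G62510. AT1G09750 encodes an aspartic protease family protein. In the RefSeq annotation of TAIR10.1, JKD lies on chromosome 5 and the other 3 genes on chromosome 1, where CO2 and AT1G62510 are direct neighbours.

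Values are MAS5 signals, a brightness per probe set that the authors scaled to one trimmed mean on every array. They show how a gene differs between samples, and the signal of 1 gene cannot be set against that of another. A signal of 14.78 was taken as background, the 95th percentile of 12 control probe sets for bacterial genes. Where the lower side of a fold holds signals at or below it, these were raised to it and the fold is given as "at least". The cre spike-in controls were low on 8 arrays (SCR replicates 2 and 3, and in every stage replicates 1 and 2) and high on the other 19. The ratio of GAPDH 3' to 5' signal, which rises as RNA is degraded or labelled short, ranged over 0.717 to 4.09 in the lines. In the stages it ranged over 4.34 to 7.85 where the spike-in was low and 14.9 to 31.7 where it was high. Among the SCR arrays, replicate 1 alone is of the high class, and it stood apart from replicates 2 and 3. Its summed signal of 3 root cap genes was 467 against 67.9 and 55.3, its root hair sum was 187 against 21.7 and 25.9, and it correlated least with its group among all 27 arrays (r = 0.888). In all these samples, fewer cells of a type and less RNA per cell cannot be told apart.

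Of the 4 genes, JKD, CO2 and AT1G09750 rose in J0571 relative to the mean of the other 4 lines, and AT1G62510 did not pass the test. Over all probe sets, limma called 2.44% higher in J0571 at an adjusted p under 0.05. The 4 genes were chosen with earlier results of these data known, so their calls and median are no test of enrichment. The median log2 difference of the 4 genes was 2.82, against 0.03 over all probe sets tested. Each gene nevertheless had its own order among the lines. CO2 was far above background in J0571 and in no other line, AT1G09750 was high in J0571 and SCR, JKD had steps from J0571 to SCR and WOL, and AT1G62510 was dim in every line.

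**Figure D1:**
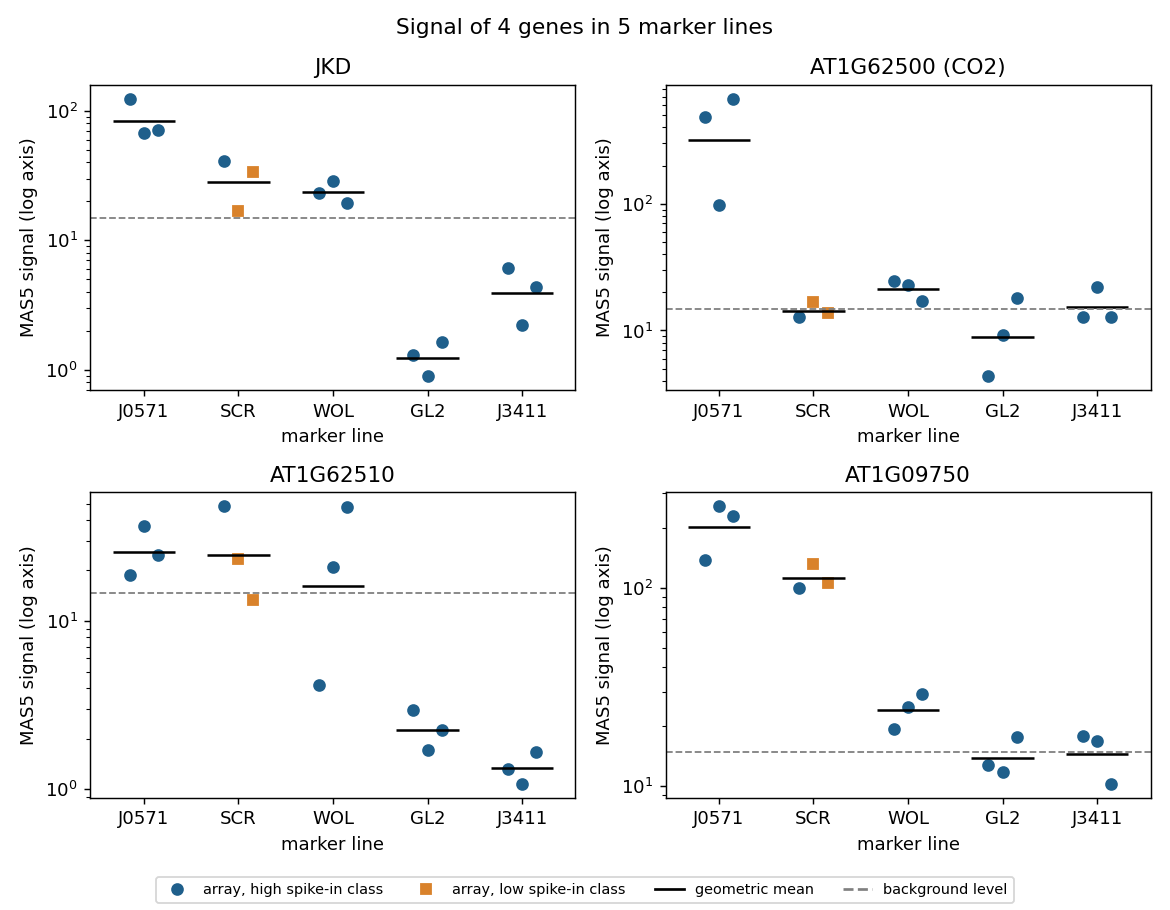
MAS5 signal on a log axis for each of the 15 line arrays (points, coloured and shaped by spike-in class), with the geometric mean of each line as a bar and the background level of 14.78 as a dashed line. CO2 stands at 97.3 to 673 in J0571 and at no more than 24.7 in the other lines, whereas AT1G09750 is high in both J0571 and SCR.

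CO2 (AT1G62500) had signals of 487, 97.3 and 673 on the 3 J0571 arrays, against 4.34 to 24.7 over the remaining 12 line arrays, 6 of them at or below background. All 3 J0571 arrays lay above every other line array, though replicate 2 was well below replicates 1 and 3. J0571 and the other lines did not overlap for 1.53% of all probe sets. The log2 difference from the mean of the other 4 lines was 4.24 ± 0.45 (SE; limma adjusted p = 5.38e-05), at least 18.4-fold. The nearest line by mean signal was WOL at 21.6 ± 3.90 (SD, n = 3), and J0571 stood 14.8-fold above it by geometric means (log2 difference 3.75 ± 0.57, limma adjusted p = 0.00153). SCR, which by its labels shares endodermis and quiescent centre with J0571, had only 12.7, 16.9 and 13.7. CO2 was higher in J0571 than in SCR by 4.26 ± 0.57 on the log2 scale (limma adjusted p = 0.00107), at least 20.5-fold. The other 4 lines followed in the order WOL, J3411, SCR and GL2 by mean signal, and no pair among them differed by the test (adjusted p = 0.331 or more). Against WOL and GL2 alone, the other Columbia lines, the J0571 difference was 4.27 (limma adjusted p = 8.75e-05).

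The J0571 array with the lowest CO2 signal stood apart from the other J0571 arrays in other markers. The summed signal of 3 endodermal genes (GSO1, AT4G11290 and AT2G39430, of 12 listed) was 2317, 6552 and 2023 on J0571 replicates 1, 2 and 3, against 6893, 4348 and 4792 on the 3 SCR arrays. Replicate 2 thus had the lowest CO2 and the highest endodermal sum of its line. For AT5G02000 and NPF6.4, used elsewhere as cortex genes, the summed signal was 12.4, 115 and 21.0 on J0571 replicates 1, 2 and 3, and 193, 109 and 99.7 on the SCR arrays. The part of these differences in the CO2 result was not tested, and without replicate 2 the CO2 (AT1G62500) difference from the other lines was 5.09 (limma adjusted p = 5.21e-06).

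JKD had signals of 124, 67.1 and 70.7 on the J0571 arrays, against 0.889 to 40.8 in the other lines. These groups did not overlap, as for 1.53% of all probe sets. The log2 difference was 2.88 ± 0.32 (SE; limma adjusted p = 6.84e-05), at least 4.28-fold. In order of mean signal, J0571 at 87.3 ± 31.9 (SD, n = 3) was followed by SCR at 30.4 ± 12.3, WOL at 23.9 ± 4.62, J3411 at 4.23 ± 1.96 and GL2 at 1.28 ± 0.382. JKD was above background on all arrays of J0571, SCR and WOL and at or below it on all arrays of J3411 and GL2. SCR and WOL, whose arrays overlap, did not differ by the test (0.25, 95% interval -0.60 to 1.11, adjusted p = 0.776), nor did GL2 and J3411 (-0.81, interval -1.67 to 0.04, adjusted p = 0.277). The stele line thus had JKD signal in the range of the endodermal line, at 16.7 to 40.8 in SCR and 19.6 to 28.8 in WOL. WOL exceeded J3411 by at least 1.59-fold (11% of all probe sets passed, log2 difference 2.02 ± 0.40, limma adjusted p = 0.00328). The summed signal of the 3 endodermal genes was 906 to 2650 in WOL, against 40.9 to 118 in GL2 and J3411. The sum of 2 quiescent centre genes (of 5 listed) was 82.8 to 116 in WOL, against 2.01 to 44.4 in GL2 and J3411. It was lower than in WOL in the lines labelled with quiescent centre, at 46.9 to 78.4 in J0571 and 55.7 to 63.9 in SCR. The 2 genes disagreed, as limma called 1 higher and 1 lower in SCR relative to the other 4 lines. There 17.5% of all probe sets passed in either direction. The sum of these 2 genes therefore does not single out that cell type here. The sum of 3 stele genes (of 8 listed) was 326 to 496 in WOL and at most 167 in the other lines. The root hair sum was 335 to 757 in WOL. The part of these cell types in the WOL signal of JKD was not tested.

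JKD also rose in J0571 relative to SCR, where 8.95% of all probe sets passed in either direction. The fold was 2.95 by geometric means (log2 difference 1.48 ± 0.40, limma adjusted p = 0.0323), with J0571 at 67.1 to 124 and SCR at 16.7 to 40.8. That call depended on single arrays, and was lost without J0571 replicate 1 or 3 or SCR replicate 2 or 3 (adjusted p = 0.0638 to 0.169). Among arrays of the high spike-in class, with 1 SCR array that is assumed to vary like the other lines, the log2 difference was 1.00 (adjusted p = 0.350), and with the class as a block it was 1.00 (adjusted p = 0.371). Against WOL, J0571 was 3.55-fold higher (1.73 ± 0.40, limma adjusted p = 0.0244, with 3.82% of all probe sets passing), a call that was lost without any one of the WOL arrays or without J0571 replicate 1 or 3 (adjusted p = 0.0545 to 0.135), and with no pseudocount (adjusted p = 0.0797). Against GL2 and J3411, J0571 was at least 5.67-fold higher in both cases (adjusted p = 2.18e-06 and 2.44e-05), where 9.77% and 7.45% of all probe sets passed.

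AT1G09750 was bright in both ground tissue lines. Its signals were 139, 258 and 231 on the J0571 arrays and 99.5, 132 and 106 on the SCR arrays, against 10.3 to 29.2 on the 9 arrays of the remaining lines. It was higher in J0571 than in the mean of the other 4 lines by 2.76 ± 0.25 on the log2 scale (SE; limma adjusted p = 1.19e-05), at least 7.00-fold. Between J0571 and SCR the arrays did not overlap, as for 23.2% of all probe sets, and the difference of 0.84 ± 0.31 (95% interval 0.184 to 1.503) missed the threshold (limma adjusted p = 0.106). SCR in turn exceeded WOL 4.61-fold (2.10 ± 0.31, limma adjusted p = 0.000834), where 7.57% of all probe sets passed. Among high-class arrays, with 1 SCR array, AT1G09750 missed the threshold against WOL (1.94, adjusted p = 0.0580). Against GL2 and J3411, SCR was higher by 2.81 and 2.75 (adjusted p = 2.24e-05 and 2.88e-05), where 18.3% and 15% passed. WOL at 24.6 ± 4.90 (SD, n = 3), J3411 at 14.9 ± 4.10 and GL2 at 14.1 ± 3.21 closed the order, and no pair of them differed by the test (adjusted p = 0.190 or more), where 10% of all probe sets passed between WOL and GL2 and 5.37% between GL2 and J3411.

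AT1G62510, the neighbour of CO2, was dim in the lines. J0571 had 18.7, 36.7 and 24.8, SCR 48.1, 23.3 and 13.4, and WOL 4.19, 20.9 and 47.8, while GL2 (1.72 to 2.98) and J3411 (1.07 to 1.66) lay below background on all arrays. J0571, SCR and WOL overlapped widely and no pair of them differed by the test (adjusted p = 0.709 or more). J0571 was higher than GL2 by at least 1.74-fold (limma adjusted p = 0.0105) and than J3411 by at least 1.74-fold (limma adjusted p = 0.0055). In these pairs 9.77% and 7.45% of all probe sets passed. SCR was also higher than GL2 and J3411 (limma adjusted p = 0.0077 and 0.00392, with 18.3% and 15% passing). So was WOL (limma adjusted p = 0.0374 and 0.0155, with 10% and 11% passing), though both WOL calls were lost without single arrays. Relative to the mean of the other 4 lines, the log2 difference of AT1G62510 in J0571 was 1.52 ± 0.47 (SE, limma adjusted p = 0.0869). That value passed without SCR replicate 1 (1.63, adjusted p = 0.0477) or WOL replicate 3 (1.69, adjusted p = 0.0325). Between J0571 and SCR the difference was 0.04 ± 0.60 (95% interval -1.23 to 1.32, adjusted p = 0.978).

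**Figure D2:**
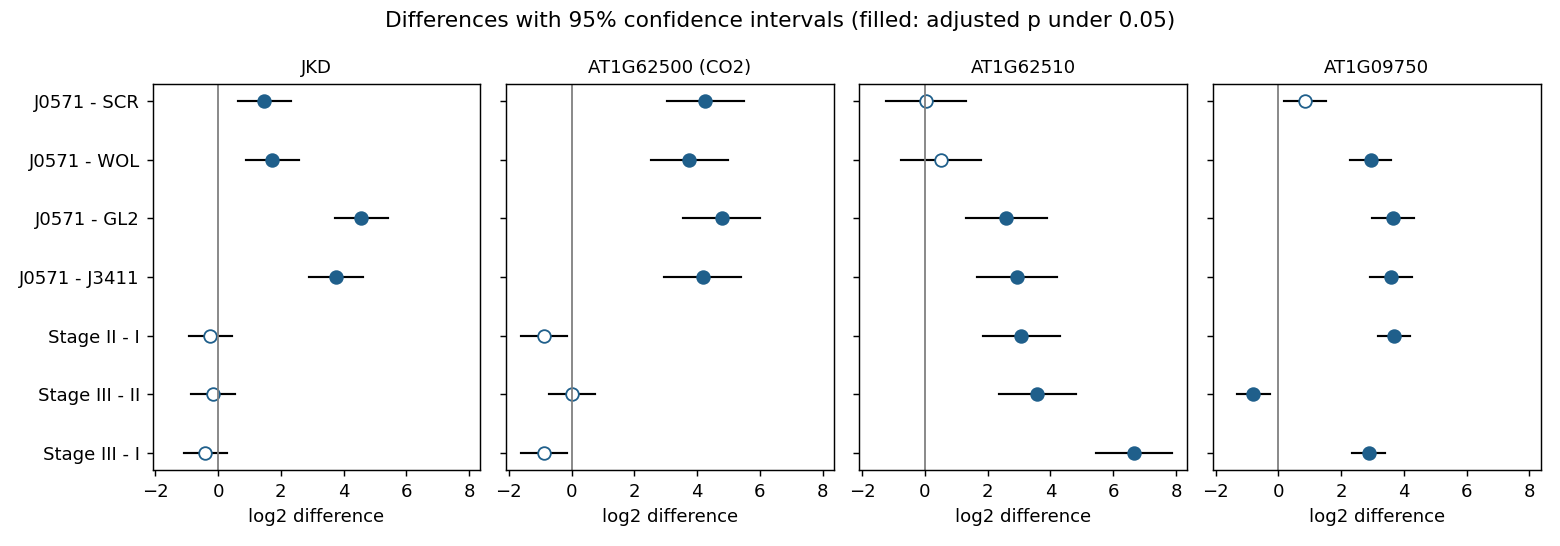
Log2 differences (points) with 95% confidence intervals (lines) of J0571 against each other line and between stages, from the limma models, filled where the adjusted p is under 0.05. CO2 differs between J0571 and all 4 other lines and misses the threshold in the stage comparisons (adjusted p = 0.0552 for stage III against I), and AT1G62510 differs in all 3 stage comparisons but not between J0571 and SCR or WOL.

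In SCR, JKD, AT1G62510 and AT1G09750 rose relative to the mean of the other 4 lines, and CO2 did not pass, where limma called 7.61% of all probe sets higher in SCR. AT1G09750 was higher by 1.70 ± 0.25 on the log2 scale (SE; limma adjusted p = 0.00045), at least 3.33-fold. Within the high spike-in class its difference was 1.54 (adjusted p = 0.0849). JKD gave 1.03 ± 0.32 (limma adjusted p = 0.0347), at least 1.11-fold, and AT1G62510 gave 1.46 ± 0.47 (limma adjusted p = 0.0446), at least 1.28-fold. Both calls were fragile. That of JKD was lost without SCR replicate 1 or 3, J3411 replicate 2, WOL replicate 1 or 3 or J0571 replicate 3 (adjusted p = 0.0502 to 0.149). SCR replicate 1 had the highest SCR signals of JKD (40.8) and AT1G62510 (48.1). The AT1G62510 call was lost without any of 11 arrays, namely the 3 SCR arrays, the 3 GL2 arrays, J3411 replicates 1 and 2, WOL replicate 2 and J0571 replicates 1 and 3 (adjusted p = 0.0519 to 0.191). CO2 (AT1G62500) was at 14.4 ± 2.21 in SCR (SD, n = 3) with a difference of -1.08 ± 0.45 (adjusted p = 0.119), and without J0571 replicate 2 it passed as lower (-1.30, adjusted p = 0.0113). The mean of the other lines holds the high J0571 signals of CO2. Against WOL, GL2 or J3411 singly, CO2 in SCR did not differ by the test (limma adjusted p = 0.609 or more).

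In GL2 all 4 genes passed as lower than the mean of the other 4 lines, where limma called 7.69% of probe sets lower, but JKD and AT1G62510 were at or below background on all 3 GL2 arrays. With low signals raised to background, GL2 was at least 1.46-fold lower for JKD (adjusted p = 2.8e-05), 2.21-fold for CO2 and 3.38-fold for AT1G09750 (adjusted p = 0.00016). For AT1G62510 (adjusted p = 0.0255) no fold above background can be given. The CO2 (AT1G62500) call in GL2 (-1.74, adjusted p = 0.0191) was lost without GL2 replicate 1 or 2 (adjusted p up to 0.129), and that of AT1G62510 without any one GL2 array (adjusted p up to 0.103). For CO2 the mean of the other lines holds the high J0571 signals. No pair of GL2, J3411, SCR and WOL differed in CO2 by the test (limma adjusted p = 0.331 or more). In J3411, JKD, AT1G62510 and AT1G09750 passed as lower (5.28% of all probe sets did; adjusted p = 0.00143, 0.0079 and 0.000281). J3411 was at least 1.10-fold lower for JKD and 3.20-fold for AT1G09750. AT1G62510 was below background on all 3 J3411 arrays, and no fold above background can be given for it. CO2 gave -0.98 in J3411 (adjusted p = 0.228) and passed without J0571 replicate 2 (-1.19, adjusted p = 0.0276), and AT1G62510 no longer passed when J3411 replicate 2 was left out (adjusted p = 0.0536). In WOL only AT1G09750 passed, as lower (-0.92, adjusted p = 0.0334, where 1.38% of all probe sets were lower). The mean of the other lines holds J0571 and SCR, where AT1G09750 was high. By mean, WOL at 24.6 lay above J3411 at 14.9 and GL2 at 14.1, without a difference by the test (limma adjusted p = 0.233 and 0.190). The WOL call was lost without any of 8 arrays, the 3 WOL arrays, J3411 replicates 1 and 2, SCR replicate 2 and J0571 replicates 2 and 3 (adjusted p = 0.0503 to 0.209). AT1G62510 in WOL had a difference of 0.88 (adjusted p = 0.378) and passed as higher without WOL replicate 1 (1.67, adjusted p = 0.0463).

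Along the root axis the 4 genes took different courses. AT1G09750 and AT1G62510 rose at stage II, where limma called 8.99% of probe sets higher than at stage I. From there AT1G62510 rose again at stage III and AT1G09750 fell. JKD passed no stage comparison. CO2 missed the threshold at stage III relative to stage I (adjusted p = 0.0552) and passed there with the replicate number as a block (0.0362). 

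**Figure D3:**
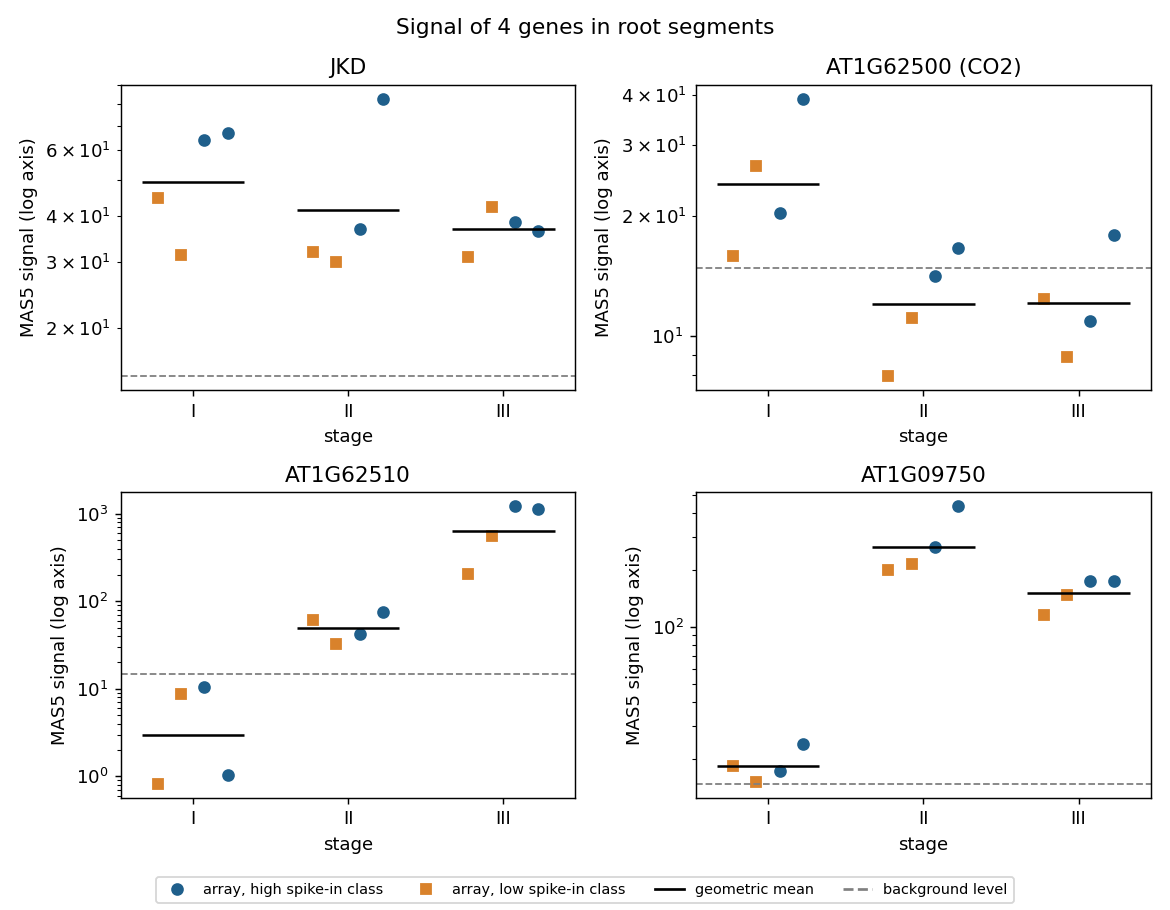
MAS5 signal on a log axis for the 12 stage arrays (points, coloured and shaped by spike-in class) with geometric means (bars) and the background level (dashed). AT1G62510 climbs from below background at stage I to 204 or more at stage III, AT1G09750 is highest at stage II, and JKD stays between 30.0 and 82.6.

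AT1G62510 had signals of 0.818, 8.63, 10.4 and 1.05 at stage I, of 61.3, 32.2, 42.0 and 75.8 at stage II, and of 204, 551, 1214 and 1133 at stage III. No array of one stage overlapped those of another. Such a lack of overlap held for 25.3% of all probe sets between stages II and I, 31.4% between III and II and 40.4% between III and I. All stage I arrays lay below background. Stage II was at least 3.39-fold above stage I (log2 difference 3.07 ± 0.57 SE, limma adjusted p = 0.00172). Stage III was 12.5-fold above stage II (3.58 ± 0.57, limma adjusted p = 0.000308; 15.8% of all probe sets were higher) and at least 42.4-fold above stage I (6.66 ± 0.57, limma adjusted p = 7.31e-07; 21.0% were higher). At stage III the low-class replicates 1 and 2 were dimmer than the high-class replicates 3 and 4. For stage III over II the difference was 4.32 among high-class arrays (adjusted p = 0.00113) and 2.85 among low-class arrays (adjusted p = 0.0373). For stage II over I it was 3.16 among high-class arrays (adjusted p = 0.0106) and 2.99 among low-class arrays (adjusted p = 0.0459). The GAPDH ratio was not even within a class. Among high-class arrays it was 29.9 and 31.7 at stage III against 17.0 and 14.9 at stage II. Among low-class arrays it was 4.34 and 5.03 against 5.37 and 5.43. The part of this ratio in the differences was not tested. Sums of marker genes for other cell types also changed over the stages. The summed signal of 3 root hair genes (EXPA7, EXPA18 and AT3G49960, of 9 listed) was 49.1 to 243 at stage I, 57.8 to 293 at stage II and 2718 to 4629 at stage III. The endodermal sum was 49.6 to 153 at stage I, 146 to 667 at stage II and 1551 to 2260 at stage III. One of its genes, AT2G39430, is also among the 5 genes most correlated with AT1G62510 over the line arrays. The sum of 3 stele genes was 236 to 358, 206 to 232 and 733 to 960 over stages I, II and III. These 3 genes did not move together, as limma called 1 higher and 1 lower at stage III relative to stage I. There 43.1% of all probe sets passed in either direction. The root cap sum fell, from 1195 to 2030 at stage I to 202 to 300 at stage III. The part of any of these cell types in the rise of AT1G62510 was not tested.

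AT1G09750 had signals of 18.3, 15.1, 17.3 and 24.1 at stage I, of 200, 215, 264 and 433 at stage II, and of 116, 148, 174 and 175 at stage III. The 3 stages did not overlap, as for 25.3% of all probe sets between stages II and I, 31.4% between III and II and 40.4% between III and I. Stage II was 14.4-fold above stage I (3.68 ± 0.24, limma adjusted p = 1.07e-06), and stage III was 8.20-fold above stage I (2.88 ± 0.24, limma adjusted p = 6.69e-07). Stage III fell relative to stage II by 0.80 on the log2 scale (SE 0.24, limma adjusted p = 0.0211), where 15.2% of all probe sets were lower. Among high-class arrays that fall was -0.94 (adjusted p = 0.0438), and among low-class arrays -0.66, which missed the threshold (adjusted p = 0.0755). The call was also lost without stage II replicate 4 (-0.57, adjusted p = 0.0716) or stage III replicate 1 (-0.67, adjusted p = 0.0611). Stage II against stage I gave 3.90 within the high class (adjusted p = 0.000323) and 3.47 within the low class (adjusted p = 0.00263).

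JKD had signals of 44.5, 31.4, 64.1 and 66.7 at stage I, of 32.0, 30.0, 36.9 and 82.6 at stage II, and of 31.0, 42.2, 38.4 and 36.5 at stage III. All lay above background and the 3 stages overlapped. The difference of stage III from stage I was -0.41 (95% interval -1.10 to 0.29, limma adjusted p = 0.345), and those of the single steps were -0.24 (interval -0.94 to 0.45, adjusted p = 0.681) and -0.16 (interval -0.86 to 0.53, adjusted p = 0.758). At stage I the low-class arrays averaged 38.0 and the high-class arrays 65.4. Within the low class stage III differed from stage I by -0.05 (adjusted p = 0.931), and within the high class by -0.77 (adjusted p = 0.178).

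CO2 (AT1G62500) was dim in all whole-root segments. Its signals were 15.8, 26.7, 20.3 and 39.1 at stage I, 7.94, 11.1, 14.2 and 16.6 at stage II, and 12.4, 8.90, 10.9 and 17.9 at stage III. All stage I arrays were above background, as was 1 array of each later stage, and stage I overlapped both later stages. The difference of stage III from stage I was -0.87 ± 0.34 (95% interval -1.60 to -0.13, limma adjusted p = 0.0552) and that of stage II from stage I was -0.88 ± 0.34 (adjusted p = 0.0903). All 4 same-numbered pairs of arrays were lower at stage III than at stage I. The stage III difference passed under 6 of the 10 alternatives that kept or split all arrays, among them the replicate block (adjusted p = 0.0362), the class block (0.0363) and quantile normalization (-1.11, adjusted p = 0.0185). It also passed without stage I replicate 1 (-1.05, adjusted p = 0.0348) or stage III replicate 4 (-1.03, adjusted p = 0.0375). It missed the threshold within each spike-in class, at -0.90 (high, adjusted p = 0.246) and -0.84 (low, adjusted p = 0.143). Beside the 97.3 to 673 of J0571, the highest segment signal was 39.1, but lines and stages are different material and no test was made between them.

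Relations between the 4 genes changed with the material. Over the 15 line arrays, which share groups, the log2 signals of JKD and AT1G09750 had a Pearson r of 0.84, and those of the neighbours CO2 and AT1G62510 had 0.41. Over the 12 stage arrays, JKD and AT1G09750 had -0.15, CO2 and AT1G62510 had -0.58, and AT1G62510 and AT1G09750 had 0.68. These values describe the arrays at hand and carry no test.

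**Figure D4:**
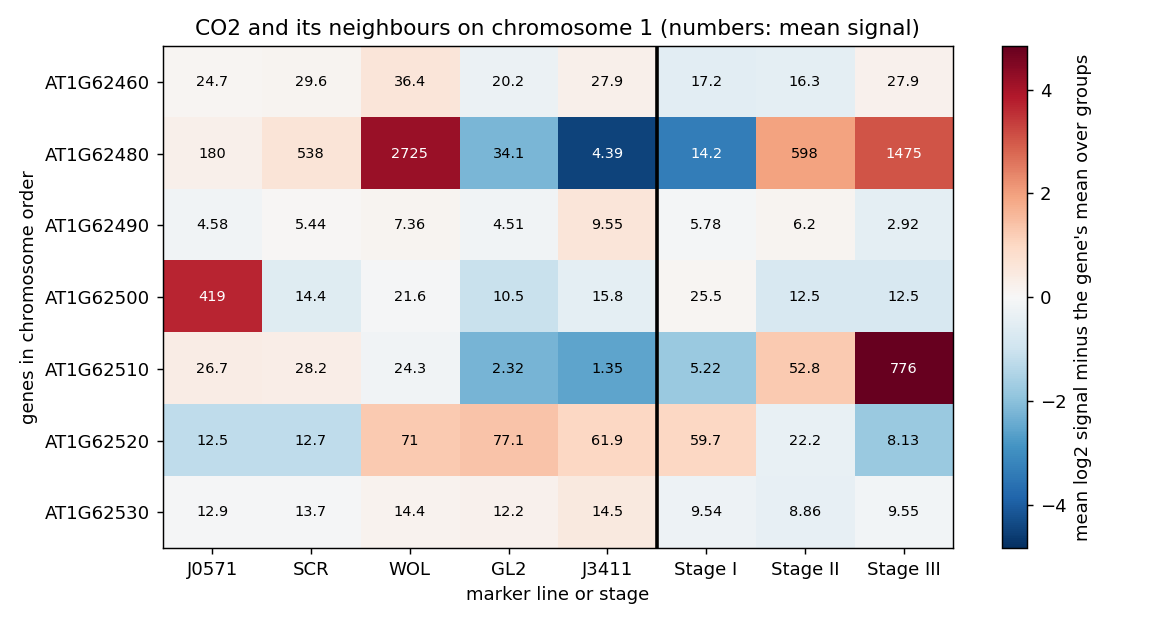
Mean signal (numbers) of CO2 (AT1G62500) and 6 genes beside it on chromosome 1, in chromosome order, in the 5 lines and 3 stages, with colour showing the mean log2 signal minus the gene's own mean over the 8 groups. CO2 is high in J0571, AT1G62510 at stage III, and AT1G62480 in WOL and at stages II and III.

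The genes next to CO2 and AT1G62510 did not share the CO2 pattern. AT1G62490, on the other side of CO2, was dim everywhere, at 2.92 to 9.55 by group mean. The mean signal of AT1G62480 was 180 in J0571, against 34.1 in GL2, 4.39 in J3411 and 2725 in the stele line WOL. In SCR it ran from 31.9 to 1332 (mean 538, SD 696, n = 3), so that 1 array carried the mean. Along the axis AT1G62480 rose with AT1G62510, at 14.2, 598 and 1475 over stages I, II and III, and had an r with AT1G62510 of 0.91 over the stage arrays and 0.71 over the line arrays. AT1G62520 was lower in J0571 than in the mean of the other 4 lines (-1.85, limma adjusted p = 0.0378) and lower in SCR (-1.83, adjusted p = 0.0167). Of 18 genes that flank the 4 genes, 3 to a side where the annotation gives them a probe set, 1 was higher in J0571 and 1 lower. Over all probe sets, 4.69% passed there in either direction. The higher one was AT5G03120, near JKD, at 32.5 in J0571 against 12.1 in the other lines (1.39, adjusted p = 0.0312).

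The other genes of the SHR, SCR and JKD network were measured in part. Of 13 listed, only SCL23, BIB and IDD6 have a probe set of their own in the annotation used. None passed in J0571 against the other lines, where 4.69% of all probe sets passed in either direction. IDD6 (AT1G14580), a further IDD protein that acts with JKD, rose in SCR (2.54 ± 0.46 SE, limma adjusted p = 0.00187). It stood at 18.4 to 84.0 in J0571 and 71.6 to 85.1 in SCR, against 3.49 to 21.1 in WOL and 11.1 or less in GL2 and J3411. BIB, another IDD protein, was at 20.8 ± 5.30 in J0571 and 27.1 ± 11.9 in SCR (SD, n = 3), and 10.7 to 19.5 by mean in the remaining lines. SCL23, a GRAS protein close to SCR, was at 18.4 ± 6.48 in J0571, 22.0 ± 5.48 in SCR and 18.3 ± 5.47 in WOL, and below background on all arrays of GL2 and J3411. All 3 passed as higher at stage III relative to stage I, where 21% of all probe sets passed as higher (limma adjusted p = 0.0147 for SCL23, 0.00674 for BIB and 0.0111 for IDD6). The signals were low, with stage means over I, II and III of 8.72, 29.1 and 23.6 for SCL23 and of 6.46, 13.8 and 17.1 for BIB. IDD6 had 1.53, 3.90 and 11.5, below background in every stage mean, so no rise above background is shown for it. Of 9 other IDD genes, IDD13 and IDD16 were measured and neither passed in the 6 comparisons of J0571, SCR and the stages. Among these, 4.69% of all probe sets passed in J0571, 17.5% in SCR and 43.1% at stage III against I.

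The other genes known as cortex markers did not follow CO2. Of 3 listed, AT5G02000 and NPF6.4 were measured, and neither passed in J0571 (-0.60 and -0.53, adjusted p = 0.677 and 0.750). NPF6.4, a nitrate transporter, was at 20.4 ± 29.7 in J0571, 53.5 ± 31.0 in SCR and 20.7 ± 3.68 in WOL (SD, n = 3), and rose in SCR against the mean of the other lines (1.97 ± 0.64 SE, limma adjusted p = 0.0448). Both genes rose at stage II, NPF6.4 by 3.20 (adjusted p = 0.000715) and AT5G02000 by 2.18 (adjusted p = 0.00204), as did AT1G09750. In stage means NPF6.4 had 4.60, 61.3 and 50.8 at stages I, II and III, and AT5G02000 had 12.8, 62.6 and 38.8.

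Among relatives of CO2 and AT1G62510, 9 of 21 listed proline-rich 8-cysteine genes were measured. In J0571, 2 of the 9 rose and 0 fell, where 2.44% of all probe sets rose, with a median log2 difference of 0.31 against 0.03 over all probe sets. AT2G45180 was at 475 ± 95.3 in J0571 (SD, n = 3), 154 ± 41.6 in SCR, 90.6 ± 16.0 in WOL, 36.2 ± 10.1 in J3411 and 21.5 ± 10.6 in GL2. It was higher in J0571 than in the mean of the other 4 lines (3.01 ± 0.28 SE, limma adjusted p = 1.34e-05) and than in SCR (1.63 ± 0.35, adjusted p = 0.011). Like AT1G62510 it rose at stage II (2.94, adjusted p = 1.48e-05), with stage means of 42.7, 336 and 405 over stages I, II and III. AT1G12100 was at 62.9 ± 32.2 in J0571 against 13.1 to 24.4 by mean in the other lines (1.47, adjusted p = 0.025). AT4G22460 was higher in J0571 than in SCR (2.24, adjusted p = 0.0447) and rose at stage III relative to stage II (3.16, adjusted p = 0.000356).

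Aspartic proteases, the wider family of AT1G09750, were measured for 9 of 13 listed genes. In J0571, 3 of the 9 rose and 0 fell (median 0.80, against 0.03 over all probe sets), where 2.44% of all probe sets rose. In SCR, 4 rose and 2 fell (median 0.69, against -0.07), where 17.5% of all probe sets passed. AT3G54400 had the closest course to AT1G09750. The signal was 1441 ± 305 in J0571 (SD, n = 3), 1095 ± 207 in SCR and 292 ± 80.6 in WOL, against 110 ± 53.4 in GL2 and 85.2 ± 25.0 in J3411. It rose at stage II (2.31 ± 0.24 SE, limma adjusted p = 2.17e-05) and fell at stage III relative to stage II (-1.13 ± 0.24, adjusted p = 0.00217), with stage means of 236, 1166 and 547 over stages I, II and III. AT3G61820 also rose in J0571 (1.75, adjusted p = 0.000243), in SCR (1.36, adjusted p = 0.00107) and at stage II (1.52, adjusted p = 0.00162). NANA was higher in J0571 (1.65, adjusted p = 0.0143) but rose at stage III relative to stage II (2.82, adjusted p = 0.000757), where AT1G09750 fell.

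For each of the 4 genes, the 5 genes with the highest Pearson correlation over the 15 line arrays were taken from 4300 genes (4299 for CO2 and AT1G09750, which left themselves out) whose mean signal reached 100 in some line. Nearest to AT1G09750 were AT1G12845 (r = 0.96) and AT3G54400 (0.94), which also had 0.96 and 0.90 over the 12 stage arrays, and then AT2G42320 (0.94), AT5G45210 (0.93) and AT1G73620 (0.90). Nearest to JKD were the peroxidase gene AT1G44970 (0.93), AT3G26760, the pectin methylesterase gene AT5G19730, AT4G28100 and AT4G16447. AT1G44970 averaged 1669 in J0571, against 1078 in SCR and 471 in WOL, and was far lower in GL2 (15.7) and J3411 (22.2). Its stage means were 25.3, 24.3 and 878 over stages I, II and III, and its r with JKD over the stage arrays was -0.38. Nearest to AT1G62510 were AT2G26690 (0.93), the protease gene AT3G61820, AT2G22620, and the dirigent protein genes AT2G39430 and AT3G13650. AT2G26690 also had 0.91 with AT1G62510 over the stage arrays. Nearest to CO2 were AT2G05790 (0.90), AT2G46230 (0.90), AT2G36350, AT4G03140 and AT3G56880. AT2G05790 averaged 1183 in J0571, against 708 in WOL, 573 in SCR, 483 in J3411 and 452 in GL2. Arrays of one line share their group, so these r values describe a shared order of the lines, and by the 5 line means instead 2 of the 5 genes were shared for CO2 and for AT1G09750 and 0 for JKD and for AT1G62510.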

How the data were processed

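The authors' deposited values are MAS5 signal intensities on a linear scale, with 1 value per probe set and array, per the submitters' processing notes; no MAS5 version is named there. They were used without further scaling: a pseudocount of 2.37 (10th percentile over all arrays) was added and log2 taken, so differences understate changes of dim genes. With 64 control probe sets left out, 22746 were tested. Group means were fitted to the 15 line arrays and, apart, to the 12 stage arrays in limma 3.58.1 under R 4.3.3, with an intensity trend and Benjamini-Hochberg adjustment over all probe sets at 0.05, for 18 comparisons. The code was tested on simulated data. Platform annotation gives 13513 probe sets 1 gene each, of which 13436 matched a locus of RefSeq's TAIR10.1 annotation, used for names and neighbour order. Precision is limited by 3 or 4 arrays per group.

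The 4 genes and all gene lists were chosen with earlier results of these data known. Other genes named are the 5 most correlated with each, the 3 measured neighbours on each side, list members called in the comparison described (up to 4 by adjusted p), and all measured network and cortex list members. No pair of arrays was identical (0 pairs). Same-numbered stage arrays tended to deviate together (r of 0.148 to 0.292 for stage II with I, 0.117 to 0.212 for III with II, 0.0981 to 0.251 for III with I). Differently numbered ones overlapped these ranges, at -0.242 to 0.179, -0.228 to 0.135 and -0.146 to 0.114. In the stages, replicate number and spike-in class go together. Same-numbered line arrays did not deviate together (-0.22 to 0.12). Alternatives were a filter on dim probe sets, quantile normalization, other pseudocounts, no trend, 1 fit of all arrays, blocks for replicate number or spike-in class, arrays of 1 class only, and each array left out.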

Additional observations from a re-analysis of the deposited data

Results flagged for a closer look

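For 12 groups of 4 stage arrays (4 genes in 3 stages), the gap of the most extreme array was set against the range of its group, and 1 group stood out, where chance gives about 1 in 20. JKD at stage II had 82.6 on replicate 4 against 30.0 to 36.9 on the other arrays, a gap of 0.869 of the range. Replicate 4 also had the highest stage II signals of CO2 (16.6), AT1G62510 (75.8) and AT1G09750 (433). Without it, the JKD difference of stage II from stage I was -0.56 (limma adjusted p = 0.217).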

How the results depend on the processing

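Of the comparisons of each line with the others, J0571 with SCR, and the stages, 309 values kept their direction and side of the threshold under the alternatives other than leaving out an array, 19 lost the call, 6 gained one and 6 changed sign; the cause was not tested. In J0571 against the other lines, JKD, CO2 (AT1G62500) and AT1G09750 kept their calls under all of these and without any one array, as did CO2 against SCR. Without a pseudocount, JKD in J0571 against SCR was 1.56 (adjusted p = 0.0818) and AT1G09750 in WOL -0.93 (0.0504). With the 25th percentile as pseudocount, JKD in SCR was 0.52 (0.116), AT1G62510 in SCR 0.82 (0.0873), and CO2 at stage III against I -0.61 (0.0374). Quantile normalization gave -0.15 for AT1G62510 in J0571 against SCR, -1.46 for CO2 and -1.50 for AT1G62510 in GL2 (0.0529 and 0.0616), 0.11 for AT1G09750 in GL2 against J3411, and for CO2 -0.32 at stage III against II and -1.11 at III against I (0.0185). CO2 at stage III against I stayed at -0.87 and passed with a filter on dim probe sets, no trend, the replicate block or the class block. With the replicate block, AT1G62510 in SCR stayed at 1.46 (0.0655) and AT1G09750 in WOL at -0.92 (0.0507), both losing the call; the block changed no call between stages II and I or III and II. The spike-in class as a block and the high class alone gave the same values and ended 5 calls: JKD in SCR 1.51 (0.144 with the block, 0.139 in the class), AT1G62510 in SCR 2.35 (0.130, 0.151), AT1G09750 in SCR 1.54 (0.0634, 0.0849), JKD in J0571 against SCR 1.00 (0.371, 0.350) and AT1G09750 in WOL -0.88 (0.0537, 0.0708). They turned AT1G62510 in J0571 against SCR to -0.84. Of stage III against II, the high class gave -0.11 for CO2, and the low class 0.21 for JKD and -0.66 for AT1G09750.

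Leaving out each array in turn gave, for J0571 against the others, 1.28 to 1.73 for AT1G62510. In SCR the ranges were 0.79 to 1.38 for JKD, -1.30 to -0.95 for CO2 and 1.02 to 1.86 for AT1G62510. In J0571 against SCR they were 1.13 to 1.72 for JKD and -0.35 to 0.49 for AT1G62510. In J3411 they were -1.21 to -0.84 for CO2 and -2.33 to -1.97 for AT1G62510. In WOL they were 0.20 to 1.67 for AT1G62510 and -1.04 to -0.78 for AT1G09750. In GL2 they were -2.14 to -1.34 for CO2 and -1.92 to -1.56 for AT1G62510. At stage III against II they were -0.31 to 0.15 for JKD, -0.15 to 0.14 for CO2 and -0.94 to -0.57 for AT1G09750, and at III against I -1.05 to -0.65 for CO2. Among pairs of lines, AT1G62510 ran over -0.28 to 1.19 in J0571 against WOL and -0.32 to 1.14 in SCR against WOL, CO2 over -0.20 to 0.15 in SCR against J3411, and AT1G09750 over -0.27 to 0.066 in GL2 against J3411. Signals near background limit what can be said of AT1G62510 in the lines and of CO2 outside J0571.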
